A study of Mus musculus with 9 samples.

Results

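The 10 genes described here encode surface receptors that pass costimulatory or inhibitory signals to T cells: Cd28, Icos, Ctla4, Pdcd1, Btla, Tigit, Cd226, Lag3, Havcr2 and Klrg1. They were taken by gene symbol, and 10 of 10 symbols were found among the 34092 genes of the deposited count table. RNA was sequenced from regulatory T cells that had been sorted directly from mice and not stimulated. The CNS2KO cells carried the Foxp3deltaCNS2-gfp allele, which lacks CNS2, a conserved noncoding element inside Foxp3. The WT cells carried the Foxp3gfp allele, so both groups had the green fluorescent reporter in Foxp3. The labels give neither the age and strain background of the mice nor how many mice stand behind a library. P-values therefore measure the spread between these libraries, which may be technical.

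The labels list 3 CNS2KO and 6 WT samples, and the comparison used 2 CNS2KO libraries (399 and 408) and 5 WT libraries (398, 402, 405, 1032 and 1037). The labels do not say what the numbers mean. Since 2 WT libraries have numbers of 4 digits and all others of 3, values with 3-digit WT numbers only are given where they differ much. The column names of these 2 WT libraries begin with R. Those of all other libraries used, both CNS2KO libraries among them, begin with YI, and the prefixes are not explained. Both columns numbered 407 were left out, since that number is given to a sample of each genotype and the columns hold the same values. Reads on genes numbered 21427618 to 21836578 in CNS2KO and 16557424 to 19154642 in WT libraries. Levels are in CPM, the reads of a gene divided by the reads on all genes that passed a filter on low counts, set to a common total. TMM scaling was added, which corrects for libraries dominated by a few transcripts. A count of 3 reads, taken as the floor of detection, stood at 0.142 to 0.182 CPM. The cells' identity genes Foxp3, Il2ra, Cd4 and Cd3e were each read at 410 CPM or more in every library.

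A T cell needs a costimulatory signal beside that of its antigen receptor, and the classical source is CD28 bound to CD80 or CD86 on an antigen-presenting cell. CTLA-4 binds the same ligands more strongly, and regulatory T cells use it to strip them from other cells. TIGIT and CD226 form a similar pair, of which the inhibitory TIGIT and the activating CD226 compete for the poliovirus receptor. CNS2 is known for keeping Foxp3 expression stable as regulatory T cells divide, and Foxp3 in turn acts on many receptor genes of these cells.

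The 300 bases around the annotated starts of Ctla4 and Tigit are shown. These genes encode the inhibitory receptors of the 2 pairs whose read ratios, given further on, did not overlap between the genotypes. The same separation held for 14.7% of other genes in their ratio to Cd28 and for 11.3% in their ratio to Cd226. The windows come from RefSeq on build GRCm38.p6 and cover 250 bases before and 50 bases after the start. They are written 5′ to 3′ on the gene's strand. Of the 10 receptor genes, 5 were matched in the promoter table. Capitals mark the TATA motif TATAAA and the NFAT core GGAAA on either strand. Ctla4 lies at chr1:60908775-60909074 on the plus strand and Tigit at chr16:43664135-43664434 on the minus strand.
Ctla4: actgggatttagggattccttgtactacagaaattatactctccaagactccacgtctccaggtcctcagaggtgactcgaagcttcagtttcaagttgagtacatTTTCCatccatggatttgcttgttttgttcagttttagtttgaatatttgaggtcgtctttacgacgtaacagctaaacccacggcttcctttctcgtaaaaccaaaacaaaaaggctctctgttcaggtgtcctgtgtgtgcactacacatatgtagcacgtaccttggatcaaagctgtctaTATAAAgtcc
Tigit: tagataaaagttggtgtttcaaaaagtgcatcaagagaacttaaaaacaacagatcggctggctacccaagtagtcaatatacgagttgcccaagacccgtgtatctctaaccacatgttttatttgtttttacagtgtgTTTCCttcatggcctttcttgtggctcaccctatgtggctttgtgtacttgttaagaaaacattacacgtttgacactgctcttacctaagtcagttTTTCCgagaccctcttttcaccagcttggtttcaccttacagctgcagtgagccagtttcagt
The Ctla4 window held 1 TATA motif, 40 bases after the annotated start, and 1 NFAT core 144 bases before it. The Tigit window held 2 NFAT cores, 110 and 13 bases before the start, and 0 TATA motifs. The forkhead motif TGTTTAC and the AP-1 motif TGANTCA were searched on both strands and matched neither window. Of 32851 promoter windows of the same length, 61.3% held the NFAT core, 13.6% the TATA motif, 7.81% the AP-1 motif and 3.65% the forkhead motif. The 4 motifs did not overlap in these windows. A match is a stretch of letters and was not tested as a binding site.

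In resting regulatory T cells of both genotypes the CD28 family made up most of these transcripts. Cd28, Ctla4 and Icos, which are neighbours on chromosome 1, held 75.1 to 77.7% of the summed CPM of the 10 receptors in CNS2KO and 74.0 to 81.9% in WT libraries. The sum over the 10 was 1485 CPM in CNS2KO 399 and 1806 CPM in CNS2KO 408, against 1553 to 2058 CPM in WT. To compare genes, CPM was divided by the length of the longest transcript with a consensus coding sequence in GENCODE M21, on a later build than the mm9 of the deposited data.

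Per kilobase, Ctla4 was the highest of the 10, at 234 ± 38.0 CPM per kilobase in CNS2KO (SD, n = 2) and 213 ± 22.0 in WT (SD, n = 5). Cd28 followed at 116 ± 13.4 CPM per kilobase in CNS2KO and 145 ± 9.75 in WT, and Icos at 91.6 ± 3.61 in CNS2KO and 109 ± 17.7 in WT. By CPM alone Cd28 stood above Ctla4. Cd28 had 506 ± 58.5 CPM in CNS2KO and 629 ± 42.4 CPM in WT, and Ctla4 had 453 ± 73.4 CPM in CNS2KO and 411 ± 42.5 CPM in WT. The order turned when CPM was divided by length, since the Cd28 transcript is longer. That division takes reads to be spread evenly along a transcript, which was not tested. A middle group held Tigit (41.3 ± 4.09 CPM per kilobase in CNS2KO, 68.9 ± 37.6 in WT) and Btla (58.3 ± 12.7 in CNS2KO, 58.5 ± 9.89 in WT).

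Pdcd1 stood at 26.7 ± 0.228 CPM per kilobase in CNS2KO and 24.3 ± 5.81 in WT, Cd226 at 21.1 ± 5.19 in CNS2KO and 16.9 ± 1.87 in WT, and Klrg1 at 8.63 ± 9.28 in CNS2KO and 13.3 ± 9.06 in WT. Lag3 (1.56 ± 0.602 in CNS2KO, 2.50 ± 0.886 in WT) and Havcr2 (0.202 ± 0.286 in CNS2KO, 1.65 ± 1.97 in WT) were the lowest per kilobase. In WT libraries the order Ctla4, Cd28, Icos held in 5 of 5, as did Btla over Pdcd1, Pdcd1 over Cd226 and Klrg1 over Lag3. Icos lay above Tigit and Cd226 above Klrg1 in 4 of 5 WT libraries. Tigit and Btla, and Lag3 and Havcr2, could not be ordered: each pair kept its order in 3 of 5 WT libraries. Lengths of all annotated exons in place of the longest transcript gave the same order in WT. In the annotation used, 0 of the 10 genes shared exon bases with another gene.

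The question of the design was whether regulatory T cells without CNS2 differ from WT cells at rest. Among the 10 receptors, 0 passed edgeR's quasi-likelihood test at an FDR of 0.05, and 0 had an unadjusted p under 0.05. Over all 14424 genes tested the shares were 0% and 2.5%. DESeq2 gave 2 receptors, Cd28 and Tigit, an unadjusted p under 0.05 (496 genes in all), and limma-voom gave 1, Cd28 (614 genes in all), with 0 past the FDR by either. Of the receptors, 3 had positive and 7 negative fold changes, with a median log2 fold change of -0.29, against a median of -0.026 over all genes tested. The median size regardless of sign was 0.32 for the receptors and 0.27 for all genes. With bulk RNA, fewer cells that express a receptor and less RNA of it per cell cannot be told apart. The bounds of each interval, as the plot of fold changes shows, limit a genotype difference most closely for Cd28, Icos, Ctla4, Btla and Cd226. For Havcr2 they limit it hardly at all.

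**Figure D1:**
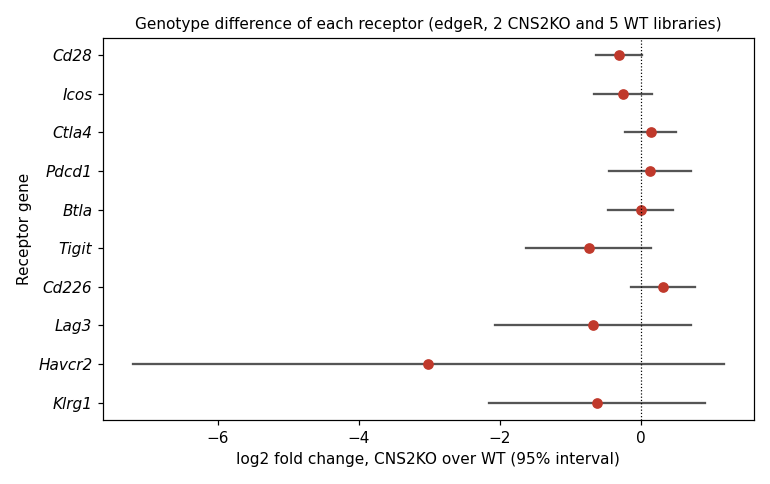
Log2 fold change of each receptor in CNS2KO over WT (x axis, log2 scale) with its 95% interval from edgeR, for 2 CNS2KO and 5 WT libraries. Every interval includes 0, and the interval of Havcr2 is the widest, from -7.21 to 1.18.

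Cd28, the main costimulatory receptor of T cells, had 465 and 548 CPM in CNS2KO 399 and 408. In WT it had 573, 611, 626, 651 and 686 CPM, lowest in library 398 and highest in 1037. The 2 CNS2KO values were the lowest of the 7, and the groups did not overlap. Cd28 had a log2 fold change of -0.31 with an SE of 0.15 and a 95% interval of -0.64 to 0.012. Its unadjusted p in edgeR was 0.0573 (adjusted p = 1), rank 433 of 14424 genes. Without CNS2KO 399 the log2 fold change was -0.20. Of all genes tested, 3% had both CNS2KO libraries below the whole WT range and 3.76% had both above it. Among the 10 receptors the counts were 2, Cd28 and Tigit, and 0. Without CNS2KO 408 the count below was 4, adding Lag3 and Klrg1, where 19.9% of all genes tested lay below. Without WT 398 it was 3, adding Icos, where 4.46% did. Without CNS2KO 399 the count above was 2, Ctla4 and Cd226, where 13% of all genes lay above, and with WT numbers of 3 digits only it was 1, Cd226, where 7.92% did.

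Icos, the inducible costimulator that binds ICOS ligand and supports effector regulatory T cells, had 288 and 305 CPM in CNS2KO 399 and 408. The WT libraries had 268 (398), 344 (402), 358 (1032), 379 (405) and 425 CPM (1037). The CNS2KO values lay below 4 of the 5 WT libraries and above WT 398, so the groups overlapped. Icos had a log2 fold change of -0.26 (SE 0.19, 95% interval of -0.67 to 0.15, edgeR adjusted p = 1). With WT numbers of 3 digits only it was -0.15.

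Ctla4, which restrains T cells through CD80 and CD86, had 401 and 504 CPM in CNS2KO 399 and 408. WT libraries had 339 (398), 411 (1037), 423 (1032), 435 (402) and 447 CPM (405). CNS2KO 408 was the highest of the 7 libraries and CNS2KO 399 lay inside the WT range. Its log2 fold change was 0.14 (SE 0.17, 95% interval of -0.22 to 0.50, edgeR adjusted p = 1). Leaving out CNS2KO 399 gave 0.30 and leaving out CNS2KO 408 gave -0.043; the spread in such fits came from WT alone.

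**Figure D2:**
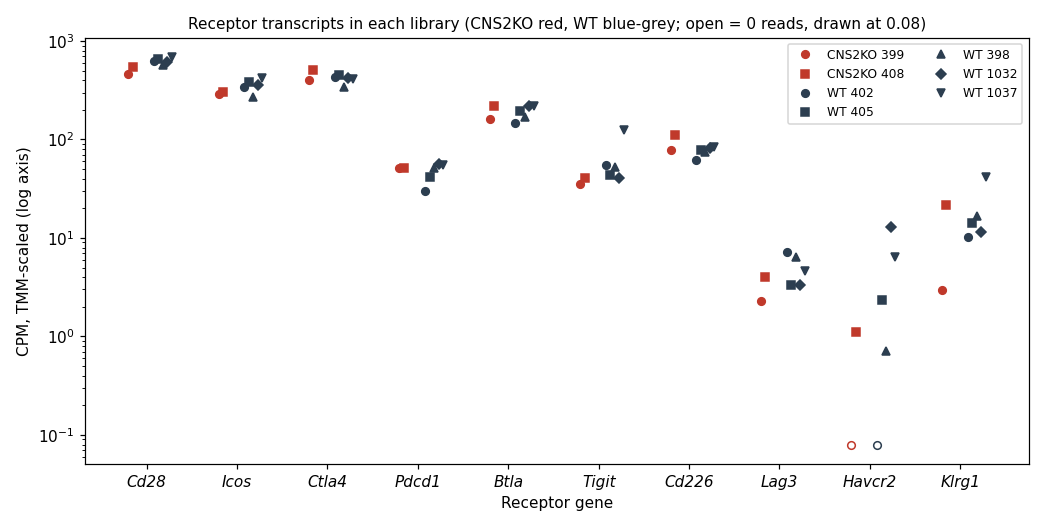
CPM of the 10 receptor genes (x axis) in each of the 2 CNS2KO and 5 WT libraries, on a log axis, with CNS2KO left of WT. Open symbols mark 0 reads. The groups overlap except for Cd28 and Tigit, and WT 1037 stands above the other WT libraries for Tigit, at 124 CPM, and Klrg1, at 41.3 CPM.

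Within a library the balance of a receptor pair can be read as a ratio of reads, which needs no scaling between libraries. These ratios are not corrected for transcript length, so only their change between genotypes is compared. There were 0.862 Ctla4 reads for each Cd28 read in CNS2KO 399 and 0.921 in CNS2KO 408. WT libraries had 0.591 (398), 0.599 (1037), 0.686 (405), 0.692 (1032) and 0.695 (402). The 2 CNS2KO ratios were the highest of the 7. The CNS2KO ratio was 1.37-fold that in WT, a log2 difference of 0.45, with an exact two-sided permutation p of 0.0476, the smallest that 21 assignments of 7 libraries allow. Adjusted over the 3 ratios examined, the exact permutation p was 0.143. Of 14423 other genes, 14.7% also had a ratio to Cd28 that was higher in both CNS2KO libraries than anywhere in WT, so many genes shared this separation. With 1 library left out the log2 difference ranged from 0.40 to 0.50.

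The ratio of Icos to Cd28 stood at 0.620 and 0.557 in CNS2KO 399 and 408 and at 0.468 to 0.620 in WT, and the groups overlapped. The log2 difference was 0.074, with an exact permutation p of 0.571 (adjusted over the 3 ratios, 0.571).

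**Figure D3:**
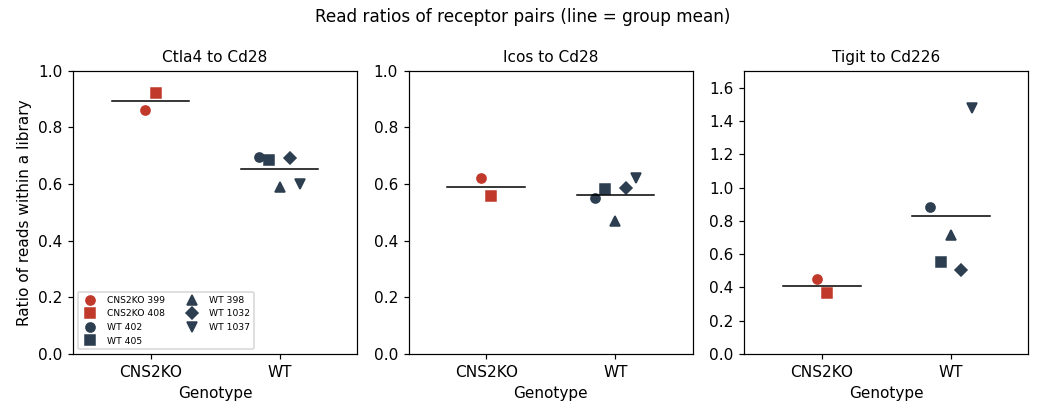
Reads of 1 receptor divided by reads of its partner within each library (y axis), for 2 CNS2KO and 5 WT libraries, with lines at group means. For Ctla4 to Cd28 the CNS2KO points lie above the WT points, for Tigit to Cd226 they lie below, and for Icos to Cd28 the groups overlap.

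Tigit, an inhibitory receptor of effector regulatory T cells, had 35.3 and 40.6 CPM in CNS2KO 399 and 408. WT libraries had 40.9 (1032), 43.3 (405), 53.1 (398), 55.3 (402) and 124 CPM (1037). The 2 CNS2KO values were again the lowest of the 7, but by a margin within counting error: the exact Poisson 95% interval was 37.9 to 43.4 CPM in CNS2KO 408 and 38.1 to 43.9 CPM in WT 1032, for counting error only. Tigit had a log2 fold change of -0.74 with an SE of 0.41 and a 95% interval of -1.63 to 0.15, at an unadjusted p of 0.0946 in edgeR (adjusted p = 1). Without WT 1037 it was -0.34, and with WT numbers of 3 digits only it was -0.41.

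Cd226, the activating receptor that shares ligands with TIGIT, had 78.4 and 111 CPM in CNS2KO 399 and 408, against 62.5 (402), 74.2 (398), 78.4 (405), 81.3 (1032) and 84.1 CPM (1037) in WT. CNS2KO 408 was the highest of all libraries and CNS2KO 399 lay inside the WT range. Cd226 had a log2 fold change of 0.32 (SE 0.21, 95% interval of -0.14 to 0.77, edgeR adjusted p = 1). Without CNS2KO 408 it was 0.035, and without CNS2KO 399 it was 0.55.

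The read ratio of Tigit to Cd226 was 0.450 and 0.365 in CNS2KO 399 and 408. In WT it was 0.503 (1032), 0.552 (405), 0.715 (398), 0.884 (402) and 1.48 (1037). The CNS2KO ratios lay under the whole WT range, and the WT libraries themselves spread widely. The log2 difference was -0.91, with an exact permutation p of 0.143 (adjusted over the 3 ratios, 0.214). It was -0.68 without WT 1037 and -0.80 with WT numbers of 3 digits only. Of 14423 other genes, 11.3% had a ratio to Cd226 that was lower in both CNS2KO libraries than anywhere in WT.

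Pdcd1, which encodes the inhibitory receptor PD-1, had 51.2 and 51.8 CPM in CNS2KO 399 and 408. WT libraries had 29.8 (402), 41.7 (405), 51.6 (398), 55.6 (1037) and 56.1 CPM (1032). The CNS2KO values were nearly equal and lay inside the WT range, on either side of the WT median of 51.6 CPM. Pdcd1 had a log2 fold change of 0.13 (SE 0.27, 95% interval of -0.45 to 0.71, edgeR adjusted p = 1). With WT numbers of 3 digits only it was 0.33, and without WT 402 it was 0.0059.

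Btla, an inhibitory receptor of the same family that binds the herpesvirus entry mediator Tnfrsf14, had 160 and 219 CPM in CNS2KO 399 and 408. In WT it had 146 (402), 171 (398), 193 (405), 220 (1037) and 220 CPM (1032). The CNS2KO libraries fell near either end of the WT range, and the log2 fold change was -0.0046 (SE 0.21, 95% interval of -0.46 to 0.45, edgeR adjusted p = 1). With WT numbers of 3 digits only it was 0.16, without CNS2KO 399 0.21 and without CNS2KO 408 -0.25. B cells also express Btla, and 10 B cell markers summed to 984 to 1159 CPM in CNS2KO and 1071 to 1369 CPM in WT, most of it Ighm (1007 CPM in CNS2KO, 1082 CPM in WT). The part of B cell RNA in Btla was not tested.

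Lag3, an inhibitory receptor related to CD4 that binds MHC class II, was read 48 and 83 times in CNS2KO 399 and 408. In WT it was read 62 (1032), 66 (405), 79 (1037), 118 (398) and 119 (402) times. These reads stand for 2.27 and 3.97 CPM in CNS2KO, against 3.35, 3.36, 4.62, 6.43 and 7.23 CPM in WT. CNS2KO 399 was the lowest library, and CNS2KO 408 lay among the WT values. Lag3 had a log2 fold change of -0.68 (SE 0.64, 95% interval of -2.07 to 0.71, edgeR adjusted p = 1). Without CNS2KO 399 it was -0.33, without CNS2KO 408 -1.14 and with WT numbers of 3 digits only -0.86.

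Havcr2, which encodes TIM-3, a receptor of helper and cytotoxic T cells and of myeloid cells, was low and uneven, from 0 to 240 reads. It had 0 reads in CNS2KO 399 and 23 in CNS2KO 408 (1.10 CPM). In WT it had 0 reads in 402, 13 in 398, 46 in 405, 110 in 1037 and 240 in 1032, the last 2 standing for 6.43 and 13.0 CPM. The high values were therefore those of the WT libraries with 4-digit numbers. The fitted log2 fold change of -3.01 (95% interval -7.21 to 1.18) rests on these uneven counts and is not a bound. With WT numbers of 3 digits only it was -0.88, and without WT 1032 it was -2.09. Without CNS2KO 408, which leaves CNS2KO 399 with its 0 reads, the fitted value was -9.39. The part of the library numbering in Havcr2 was not tested. The 10 myeloid markers summed to 31.7 to 33.0 CPM in CNS2KO and 7.71 to 32.3 CPM in WT, and to 21.4 CPM in WT 1032 and 17.7 CPM in WT 1037. The part of myeloid RNA in Havcr2 was not tested.

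Klrg1, a lectin-like inhibitory receptor that binds cadherins and marks terminally differentiated regulatory T cells, varied most among the well-read receptors. It had 2.93 CPM in CNS2KO 399 and 21.5 CPM in CNS2KO 408, from 62 and 449 reads. WT libraries had 10.3 (402), 11.4 (1032), 14.2 (405), 16.7 (398) and 41.3 CPM (1037). CNS2KO 399 was the lowest and WT 1037 the highest, 14.1-fold apart, with CNS2KO 408 above 4 of the 5 WT libraries. Its log2 fold change was -0.62 (SE 0.70, 95% interval of -2.16 to 0.91, edgeR adjusted p = 1). It was 0.20 without CNS2KO 399, -2.68 without CNS2KO 408, -0.11 without WT 1037 and -0.17 with WT numbers of 3 digits only. NK cells and CD8 T cells also express Klrg1, and 10 of their markers summed to 69.4 to 87.8 CPM in CNS2KO and 69.8 to 83.3 CPM in WT. Their sum was highest in CNS2KO 399 (87.8 CPM), where Klrg1 was lowest, and was 78.0 CPM in WT 1037. The largest parts of the sum in CNS2KO 399 were Prf1 (25.2 CPM), Nkg7 (24.6 CPM) and Cd8b1 (20.8 CPM). In WT Prf1 had 11.4 to 23.3 CPM and Nkg7 16.9 to 23.7 CPM. The NK receptor Ncr1 had 0 reads in every library, but other genes of the list were read. In CNS2KO 399 Gzma had 6.29 CPM, against 0 to 1.03 CPM in WT. Eomes had 8.51 CPM there, against 0 to 1.99 CPM in WT. Cd8b1 went the other way, with 20.8 CPM in CNS2KO 399 and 22.4 to 39.3 CPM in WT. Klrb1c and Klrd1 had 0 CPM in CNS2KO 399, where WT had 0 to 1.09 CPM of each. Cd8a had 1.94 CPM in CNS2KO 399, inside the WT range of 1.53 to 6.37 CPM. The part of NK and CD8 T cell RNA in Klrg1 was not tested.

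Across the 10 receptors the libraries differed in a way that genotype did not order. CNS2KO 399 was the lowest library for 4 receptors (Cd28, Tigit, Lag3 and Klrg1) and the highest for 0, while CNS2KO 408 was the highest for 2 (Ctla4 and Cd226) and the lowest for 0. WT 1037 was the highest for 4 (Icos, Cd28, Tigit and Klrg1). WT 402 was the lowest for Pdcd1, Btla and Cd226, and for Havcr2 both CNS2KO 399 and WT 402 had 0 reads. CNS2KO 399 also held the most erythroid RNA, with a sum over 7 markers of 156 CPM, against 31.4 CPM in CNS2KO 408 and 6.84 to 27.6 CPM in WT. The part of erythroid RNA in the low receptor values of CNS2KO 399 was not tested.

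**Figure D4:**
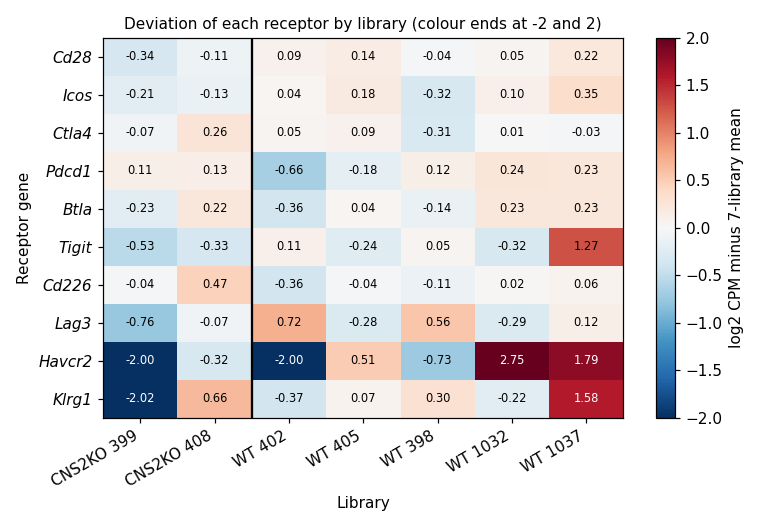
Log2 CPM (0.5 CPM added) of each receptor minus its mean over the 7 libraries, with CNS2KO left of the black line and WT right of it. The rows of Cd28, Icos and Ctla4 stay within 0.35 of 0, while Klrg1 spans -2.02 in CNS2KO 399 and 1.58 in WT 1037. Havcr2 reaches 2.75 in WT 1032, past the end of the colour scale.

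For each receptor the gene with the nearest profile over the 7 libraries was sought among 8356 or 8357 other genes at 10 CPM or more, by the root mean square difference of centred log2 CPM. The nearest were Mmadhc for Ctla4 (0.0505), Hsd17b12 for Cd226 (0.0595), Ap3s2 for Btla (0.0667), Pik3r1 for Cd28 (0.0672), Ccnb2 for Pdcd1 (0.08) and Commd6 for Icos (0.0825). Receptors with wider swings had more distant neighbours: Axin1 for Lag3 (0.149), Grn for Tigit (0.227), Ippk for Klrg1 (0.410) and Ctse for Havcr2 (0.932). With 7 libraries, such likeness, sought over so many genes, describes these libraries only.

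Genes around the receptors were read from 5 lists, and 0 genes of any list passed edgeR's test at an FDR of 0.05. Of 13 ligand genes, 9 were tested, with 4 positive and 5 negative fold changes (median log2 -0.066) and 0 at an unadjusted p under 0.05. The galectin Lgals9, described as a TIM-3 ligand, had 320 ± 43.8 CPM in CNS2KO (SD, n = 2) and 317 ± 39.2 CPM in WT (SD, n = 5). The PD-1 ligand Cd274 had 113 ± 13.8 CPM in CNS2KO and 118 ± 9.63 CPM in WT, and the CD28 and CTLA-4 ligand Cd86 had 65.7 and 77.8 CPM in CNS2KO and 39.2 to 88.8 CPM in WT. All 3 overlapped between the genotypes.

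Of 18 related receptors, 17 were found in the table and 16 tested, with 9 positive and 7 negative fold changes (median log2 0.081). The adhesion receptor Cd2 had 1449 ± 210 CPM in CNS2KO and 1182 ± 97.8 CPM in WT, and the inhibitory scavenger receptor Cd6 had 676 ± 60.6 CPM in CNS2KO and 709 ± 103 CPM in WT. Cd48, a ligand of CD2 and of the receptor 2B4, had 759 and 785 CPM in CNS2KO 399 and 408. Both values lay above the WT range of 500 to 683 CPM, as for 3.76% of all genes tested. The log2 fold change of Cd48 was 0.42 (SE 0.16), with an edgeR unadjusted p of 0.0258 and an adjusted p of 1. It was the only gene of this list with an unadjusted p under 0.05, which 2.5% of all genes tested had.

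Signalling partners of the receptors had 5 positive and 21 negative fold changes in 26 genes tested (median log2 -0.14), with 0 at an unadjusted p under 0.05. Over all genes tested, 6835 were positive and 7589 negative (median log2 -0.026). The genes of a list were read in the same 2 CNS2KO libraries, so their signs are not independent. The kinase Lck, which phosphorylates the CD28 tail, had 1424 ± 136 CPM in CNS2KO and 1423 ± 43.7 CPM in WT. The adaptor Lcp2 had 658 ± 32.5 CPM in CNS2KO and 720 ± 48.7 CPM in WT. For 2 of the 26 the CNS2KO values lay under the whole WT range, Pik3r1 and Ppp2r1a, named after their values were seen, where 3% of all genes tested did. Pik3r1, the regulatory subunit of PI3 kinase, had 198 and 220 CPM in CNS2KO, against 235 to 263 CPM in WT (log2 fold change -0.27, SE 0.15). Ppp2r1a, a scaffold subunit of the phosphatase PP2A, had 211 and 192 CPM in CNS2KO, against 225 to 273 CPM in WT (log2 fold change -0.25, SE 0.16).

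Genes of receptor traffic and shedding had 7 positive and 4 negative fold changes in 11 tested of 12 (median log2 0.041). The small GTPase Arf1 had 282 ± 75.9 CPM in CNS2KO and 265 ± 16.7 CPM in WT. Ap2m1, a subunit of the clathrin adaptor that takes CTLA-4 in from the surface, had 290 ± 41.0 CPM in CNS2KO and 250 ± 24.8 CPM in WT. Trat1, which helps CTLA-4 to the surface, had 192 ± 65.6 CPM in CNS2KO and 186 ± 42.7 CPM in WT. Lrba, which protects CTLA-4 protein from breakdown in lysosomes, was chosen for mention with its values known. It had 27.4 and 33.1 CPM in CNS2KO 399 and 408, below the WT range of 39.1 to 74.0 CPM. Of all genes tested, 3% lay below WT in this way and 2.5% had an unadjusted p under 0.05 in edgeR. The log2 fold change of Lrba was -0.85 (SE 0.30), with an edgeR unadjusted p of 0.0147 and an adjusted p of 1. With WT numbers of 3 digits only it was -0.65.

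Regulators of receptor transcription and mRNA decay had 5 positive and 9 negative fold changes in 14 tested (median log2 -0.20), with 0 at an unadjusted p under 0.05 and 0 without overlap between the genotypes. Tox, a factor of exhausted T cells, had 275 ± 47.8 CPM in CNS2KO and 308 ± 50.2 CPM in WT. The inhibitor of DNA binding Id3 had 187 ± 29.0 CPM in CNS2KO and 178 ± 29.4 CPM in WT, and the antigen receptor responsive factor Nfatc1 had 121 ± 0.885 CPM in CNS2KO and 112 ± 31.1 CPM in WT.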

How the data were processed

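Total RNA of sorted regulatory T cells was amplified with a SMARTer kit and sequenced as Proton libraries, per the labels' protocols. The authors deposited whole-number counts of reads for each gene symbol, not normalized. STAR, BWA, edgeR and build mm9 are named, per the submitters' processing notes, without roles or versions, and the read counter, its annotation and whether it used strand are not stated there. Library sizes and tests leave out 5 summary rows: genes took 22.0 to 23.7% of the reads, and no feature 47.7 to 54.3%. The 2 columns numbered 407 were not used.

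Genotypes were compared in R 4.3.3 with edgeR 4.0.16: filterByExpr, TMM scaling and the two-sided quasi-likelihood test over all genes, adjusted by Benjamini-Hochberg, with a threshold of 0.05. Each SE is the log2 fold change divided by the square root of the F statistic. Of the 10 receptors, 10 passed the filter. Ratios had 0.5 read added to each count and were compared by an exact permutation test over libraries. The alternatives tried were 2 other scalings (upper-quartile and relative log expression), 2 other tools (DESeq2 1.42.0 and voom in limma 3.58.1), 2 other filters (none, or 10 CPM in 3 libraries), WT restricted to 3-digit numbers, a term for 4-digit WT numbers, an FDR of 0.1 and leaving out each library. Tests were checked on simulated data. The receptors and lists were chosen with earlier results of these data known. The text names all 10 receptors, the 3 genes of each list with the highest mean CPM, any that passed, and the nearest profile of each receptor; 1 gene that this rule names is not reported here.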

Additional observations from a re-analysis of the deposited data

Results flagged for a closer look

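Each of 13 genes or ratios was checked for a WT library that stands apart from the other WT libraries, and 2 had one. By chance about 1 in 20 would if the values followed a normal distribution, which was not tested. The 13 checks share genes and libraries, so they are not independent. Tigit stood at 124 CPM in WT 1037, against 55.3 CPM in the next highest WT library, a gap of 0.828 of the whole WT range. Klrg1 stood at 41.3 CPM in WT 1037, against 16.7 CPM in the next, a gap of 0.793 of the range. Both were in the same library, and CNS2KO libraries had 35.3 and 40.6 CPM of Tigit and 2.93 and 21.5 CPM of Klrg1.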

How the results depend on the processing

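Over all alternatives run, 0 receptors and 0 genes of the 5 lists passed an FDR of 0.05, and 0 passed 0.1 in the fit of all libraries; the lowest adjusted p of a receptor was 0.264. Over all genes, 8 were called when low counts were not filtered and 0 under every other alternative run. Signs turned in 8 of 148 fold changes of receptors. That of Btla, at -0.0046 with all libraries, was 0.16 with WT numbers of 3 digits only and 0.16 with a term for the 4-digit WT libraries, and ranged from -0.25 to 0.21 with 1 library left out. With 1 library left out Ctla4 ranged from -0.043 to 0.30, Klrg1 from -2.68 to 0.20 and the log2 difference of the Icos to Cd28 ratio from -0.0040 to 0.15. The count of receptors with every CNS2KO library below every WT library ranged from 2 to 4 with 1 library left out, where the 4, without CNS2KO 408, were Cd28, Lag3, Tigit and Klrg1 and 19.9% of all genes tested lay below. The count above ranged from 0 to 2, where the 2, without CNS2KO 399, were Ctla4 and Cd226 and 13% of all genes lay above, and it was 1, Cd226, with WT numbers of 3 digits only (7.92% of all genes); these counts were chosen after seeing the data. Fits without a CNS2KO library take their spread from WT alone, assuming that the lone CNS2KO library varies like WT, and the cause of these shifts was not tested. Havcr2 and Lag3 could not be fitted at 10 CPM in 3 libraries, since they did not reach it. No paired analysis was possible because the genotypes share only 1 number, 407, whose columns were not used. With 2 CNS2KO libraries the intervals are wide, and reads carry no molecular identifiers, so floors cover counting error only.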

Other observations

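A few transcripts of other blood cells, picked out after their values were seen, were higher in both CNS2KO libraries than in every WT library, at low levels. The granzyme Gzma of cytotoxic lymphocytes had 6.29 and 2.39 CPM in CNS2KO 399 and 408, against 0 to 1.03 CPM in WT (log2 fold change 3.46, SE 1.36, edgeR unadjusted p 0.0263, adjusted p = 1). The lysozyme Lyz2 of myeloid cells had 16.7 and 10.1 CPM in CNS2KO, against 0.182 to 9.27 CPM in WT, and the adaptor Tyrobp of myeloid and NK cells 5.06 and 1.72 CPM in CNS2KO, against 0 to 1.14 CPM in WT. Cd68, a lysosomal protein of macrophages, had 2.13 and 2.54 CPM in CNS2KO, against 0 to 2.09 CPM in WT. The Cd68 value of CNS2KO 399 nearly equalled the highest WT value, and the gap was not tested against counting error. Both CNS2KO libraries were above every WT library for 3.76% of all genes tested. They were so for 3 of 9 genes tested of the myeloid list, 1 of 8 of the CD8 and NK list and 1 of 5 of the erythroid list. That erythroid gene, Hba-a2, had 9.79 and 3.25 CPM in CNS2KO 399 and 408, against 0 to 3.16 CPM in WT. All 5 erythroid genes tested had positive fold changes. Of them, 3 had an edgeR unadjusted p under 0.05, which 2.5% of all genes tested had. Hbb-b1 had 78.4 and 11.9 CPM in CNS2KO 399 and 408, against 1.23 to 12.5 CPM in WT. Other genes of the myeloid list had negative log2 fold changes, among them Csf1r (-0.32), Itgam (-0.39) and Siglech (-1.12). So did Cd8b1 (-0.54) and Cd8a (-0.34) of the CD8 and NK list.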
